A study of Mus musculus with 8 samples.

Results

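Wnt signalling genes of the cell surface and the extracellular space were described in 2 fetal mouse vessels, the ductus arteriosus and the aorta. The members were 59 of the 18193 genes named on the array, chosen by symbol: the Wnt ligands, the Frizzled and Ror receptors, Lrp5 and Lrp6, the Sfrp, Dkk, Frzb, Wif1 and Notum inhibitors, the R-spondins with their Lgr receptors, the ligases Znrf3 and Rnf43, and Axin1, Axin2, Tcf7l1, Tcf7l2 and Lef1. The antisense transcript Fzd10os also met the symbol rule. Each gene was read from its brightest probe set, by the mean of all 8 arrays. The ductus arteriosus joins the pulmonary artery to the aorta before birth and closes after it. Vessel segments were taken on day 19 of gestation from untreated mice of the strain given as CD88, described as wild type for CD88, and the label spells the vessel "Ducuts arteriosis". A pool held the segments of up to 10 pups of a single litter, and each tissue had 4 pools on 4 arrays, labelled as biological replicates, so an array is a litter average and not a single fetus, and p-values measure the spread between these pools. The comparison asks which of these genes differ between the closing vessel and the neighbouring artery.

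Wnt proteins are secreted lipid-modified ligands that bind Frizzled receptors. With the co-receptors Lrp5 or Lrp6 they stabilise beta-catenin, which acts on genes through Tcf and Lef factors, whereas Ror1 and Ror2 serve branches that do not need beta-catenin. R-spondins bind Lgr receptors and keep the ligases Znrf3 and Rnf43 from removing Frizzled from the cell surface, so they raise the response to a Wnt. Sfrp, Frzb and Wif1 proteins bind Wnts outside the cell, Dkk proteins block Lrp co-receptors, and Notum removes the lipid from the ligand. In arteries this pathway is known for roles in smooth muscle growth, mural cell recruitment and outflow tract development.

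Values are log2 expression values, and differences are ductus minus aorta. The median of an array was 4.36 to 4.42 and its first quartile 2.74 to 2.86. Without a detection call in the values used, a value near the first quartile is not shown to be above background and a fold against it can be compressed. The label check held: the ductus factor Tfap2b was at 7.47 to 7.69 in the ductus and 2.23 to 2.87 in the aorta, and smooth muscle myosin Myh11 was high in both (means of 11.30 and 10.30). The mean of 12 smooth muscle markers was 10.05 to 10.49 in the ductus and 9.08 to 9.64 in the aorta, that of 12 endothelial markers 7.24 to 7.49 and 7.64 to 8.09, and that of 11 mesothelial markers 6.76 to 7.34 and 7.96 to 9.32. These lists held 5, 0 and 0 genes called higher in the ductus and 0, 3 and 8 called higher in the aorta. Ductus replicate 3 stood apart in 12 skeletal muscle markers (mean 6.63, against 4.15 to 4.51 in the other ductus arrays and 3.84 to 4.40 in the aorta). The mean of 11 thymus and T cell markers ran from 3.86 to 7.02 in the ductus and from 3.53 to 6.32 in the aorta, with the highest values on ductus replicate 1 and aorta replicate 4. Brown adipocyte markers (4.54 to 7.19 in the aorta) were highest on aorta replicate 3, cardiac markers (5.51 to 6.69 in the aorta) on aorta replicate 1 and lung epithelium markers (3.99 to 5.43 in the ductus) on ductus replicate 3. The part of these cells in the results was not tested, and in pooled tissue fewer cells of a type and less RNA per cell cannot be told apart.

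Of the 59 genes, 5 passed the test. Rspo3, its receptor Lgr6 and the inhibitor Sfrp2 were higher in the ductus, and the ligands Wnt16 and Wnt5a were higher in the aorta. Genes were tested with limma (moderated, two-sided), p was adjusted across the 18193 genes after Benjamini and Hochberg, and the threshold for a call was 0.05. Of all genes, 3.86% were called, 1.80% as higher in the ductus and 2.06% as higher in the aorta, and 8.47% of these members were. Signal was above the array median on all 8 arrays for 26 members, of which 3 were called, and among all genes with such signal 4.87% were called. The unadjusted p was under 0.05 for 19 members (32.2%), against 16.1% of all genes. Every ductus value lay on the same side of every aorta value in 14 members (23.7%), against 11.3% of all genes. Of these 14, 10 were higher in the ductus (16.9%, against 5.23% of all genes) and 4 in the aorta (6.78%, against 6.06%). The median difference over the members was -0.02 and over all genes -0.03. With the arrays scaled again, by centring, quantile normalization or cyclic loess, the split of 3 ductus calls and 2 aorta calls became 4 and 1, as Ror2 passed and Wnt5a did not.

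**Figure D1:**
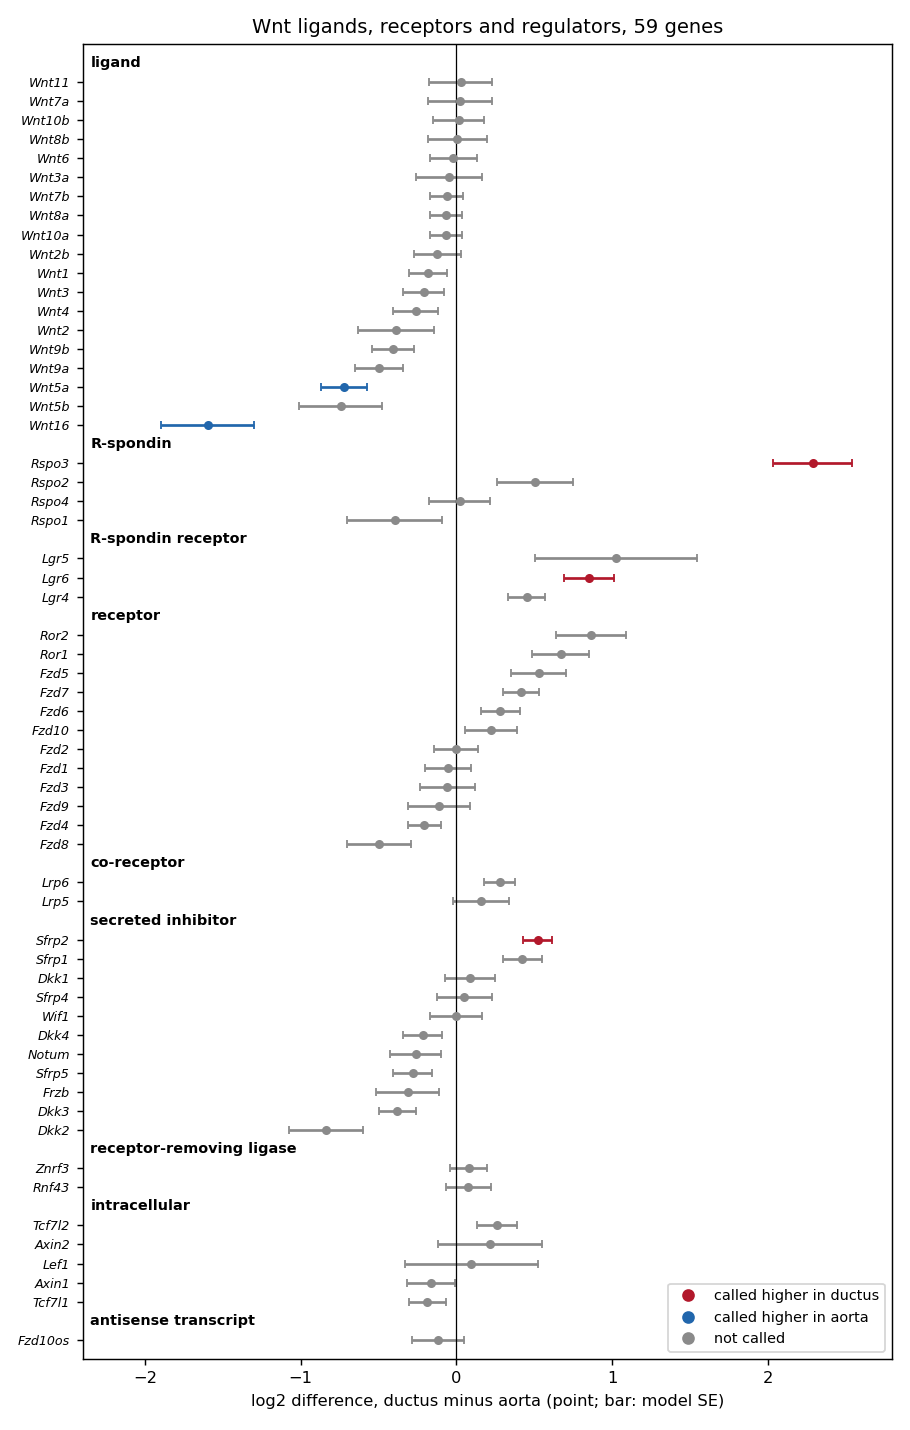
Log2 difference between ductus and aorta (x axis) for each of the 59 genes, grouped by role, with the model's standard error as bars. Rspo3 stands farthest to the right at 2.29 and Wnt16 farthest to the left at -1.59, and the ligands lie mostly at or left of 0.

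Among the 4 R-spondins, which amplify a Wnt signal, Rspo3 alone was called, and it was the largest difference of all 59 genes. Rspo3 was at 6.84, 6.34, 6.65 and 6.59 on ductus replicates 1 to 4 and at 4.28, 4.93, 3.59 and 4.48 on the aorta arrays. Each of the 4 ductus values was above all 4 aorta values, and the aorta values lay around the array medians. The difference of 2.29 ± 0.25 (SE; 95% interval 1.72 to 2.85, adjusted p = 0.00108 with limma) corresponds to 4.88-fold. It was called under all 20 alternatives (adjusted p of 0.000144 to 0.0262), with differences of 1.50, as the mean over its 2 probe sets, to 2.49.

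The other R-spondins did not pass. Rspo2 was at 3.70 to 4.30 in the ductus and 3.20 to 4.30 in the aorta (difference 0.50 ± 0.25, limma adjusted p = 0.359), and every value was under the array median. Aorta replicate 1 (4.30) stood above the other 3 aorta arrays (3.20 to 3.43), and without it the difference was 0.76 (adjusted p = 0.0476, over a range of 0.0476 to 0.949 in 18 alternatives). The second Rspo2 probe set gave -0.43, but its mean of 2.96 is near the first quartile and not shown to be above background. Rspo1 was at 4.00 ± 0.60 and 4.40 ± 0.42 (SD, n = 4 each), with a 95% interval of the difference from -1.08 to 0.29, and Rspo4 was at 3.02 ± 0.10 and 3.00 ± 0.43.

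All 3 R-spondin receptors had a positive difference, and Lgr6 was called. Lgr6 was at 9.79, 9.91, 10.20 and 9.89 in the ductus and 8.91, 9.45, 9.23 and 8.80 in the aorta. The tissues did not overlap, and the difference was 0.85 ± 0.16 (1.80-fold, 95% interval 0.49 to 1.22, limma adjusted p = 0.0196). Its second probe set gave 0.76 ± 0.14 and was called too, when all 34945 probe sets were fitted (adjusted p = 0.0205). Lgr6 was highest on ductus replicate 3 and, in the aorta, on replicate 2. The smooth muscle marker mean had its highest values on the same arrays, and so had the mean of 9 fibroblast and adventitial markers. On the other arrays the order by Lgr6 differed from the smooth muscle order in both tissues and from the fibroblast order in the aorta. Ductus replicate 3 was also the highest ductus array for endothelial (7.49), skeletal muscle (6.63) and lung epithelium (5.43) markers. The fibroblast and adventitial mean was lower in the ductus (9.84 to 9.91) than in the aorta (10.00 to 10.24). The cell source of Lgr6 was not tested. Lgr6 was called in 15 of 20 alternatives (adjusted p of 0.00497 to 0.0855). It did not pass without ductus replicate 2, 3 or 4 or aorta replicate 1 (limma adjusted p of 0.0503 to 0.0541), while its difference stayed at 0.77 to 0.87 there.

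Lgr4, the widely expressed relative, was at 9.24, 9.26, 9.39 and 9.27 in the ductus and 8.78, 8.83, 9.11 and 8.63 in the aorta. These values did not overlap, yet the difference of 0.45 ± 0.12 did not pass (limma adjusted p = 0.0801), and it passed without aorta replicate 3 (0.54, adjusted p = 0.0326, over a range of 0.0326 to 0.242 in 20 alternatives). That array had the highest brown adipocyte marker mean (7.19, against 4.54 to 6.05 in the other aorta arrays). It also had the lowest aorta means of several marker lists, among them mesothelial (7.96), endothelial (7.64) and thymus and T cell (3.53) markers. Lgr5, a stem cell marker and Wnt target, was uneven in the ductus, with 5.68, 3.93, 2.94 and 5.34, against 3.26 to 3.79 in the aorta. Its ductus SD of 1.27 was the widest of any member, replicates 1 and 4 being high and replicate 3 below every aorta value, and the difference of 1.03 ± 0.52 did not pass (adjusted p = 0.381). The second Lgr5 probe set, at a mean of 2.60, was not shown to be above background. Its values were even and did not overlap (2.63 to 2.79 in the ductus, 2.36 to 2.56 in the aorta), and its difference of 0.27 ± 0.10 did not pass (limma adjusted p = 0.247).

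**Figure D2:**
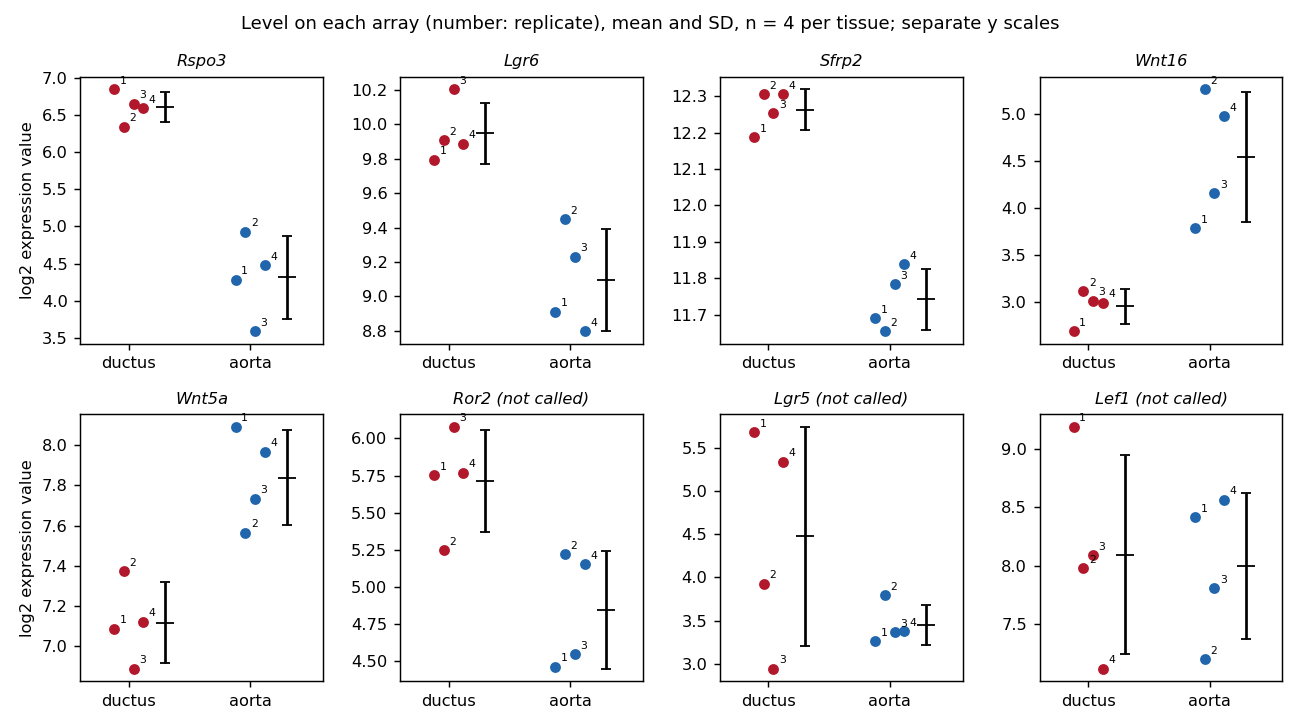
Log2 expression value on each array (y axis, a separate scale for each gene) in ductus and aorta for the 5 called genes and for Ror2, Lgr5 and Lef1, with the replicate number at each point and the mean and SD (n = 4) beside it. The tissues do not overlap for Rspo3, Lgr6, Sfrp2, Wnt16, Wnt5a and Ror2, whereas Lgr5 spreads from 2.94 to 5.68 in the ductus and Lef1 overlaps.

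Among the 19 ligands, Wnt16 and Wnt5a were called higher in the aorta, and limma called 0 higher in the ductus, where 0 had an unadjusted p under 0.05 too. A negative difference was found in 15 of 19 (78.9%, median -0.12), against 56.0% of all genes (median -0.03), but 11 of these 15 were under the array median on all 8 arrays, so their sign rests on weak signal. In all, 15 of the 19 were that weak, and Wnt5a, Wnt5b and Wnt9a were above it throughout. Wnt16, a ligand with roles in bone and in blood stem cell development, was at 3.78, 5.26, 4.15 and 4.97 in the aorta and 2.68, 3.11, 3.01 and 2.99 in the ductus. The ductus values were close to the first quartiles of the arrays, so the 3.02-fold difference (-1.59 ± 0.30, 95% interval -2.26 to -0.93, limma adjusted p = 0.0175) is not exact. Aorta replicate 1 had the highest aorta means of mesothelial (9.32), endothelial (8.09), cardiac (6.69) and foregut epithelium (5.32) markers, and the lowest aorta value of Wnt16. Without that array Wnt16 was at -1.85 (limma adjusted p = 0.00562, over a range of 0.00562 to 0.109 in 18 alternatives). Wnt16 did not pass without ductus replicate 1 (adjusted p = 0.059) or 4 (0.0523) or aorta replicate 4 (0.0514).

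Wnt5a, the main ligand of the Ror receptors, was at 8.09, 7.56, 7.73 and 7.97 in the aorta and 7.09, 7.37, 6.89 and 7.12 in the ductus. The tissues did not overlap, and the difference was -0.72 ± 0.15 (1.65-fold higher in the aorta, limma adjusted p = 0.0292). Of its 4 probe sets, all were lower in the ductus (-0.79 to -0.60) and 2 were called. Wnt5a was highest on aorta replicate 1, as were the mesothelial, endothelial, cardiac and foregut epithelium marker means of the aorta. The cell source of Wnt5a was not tested. Without that array Wnt5a was at -0.64 (limma adjusted p = 0.0686). It was called in 10 of 20 alternatives (adjusted p of 0.0136 to 0.108), and it did not pass without ductus replicate 1, 3 or 4 or aorta replicate 1 or 4.

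Its close relative Wnt5b was at 6.11 to 7.22 in the ductus and 6.72 to 7.69 in the aorta, with overlap. Its difference of -0.74 ± 0.26 did not pass (limma adjusted p = 0.193), and its second probe set gave -0.82. Wnt9a, a ligand of skeletal and valve development, was at 7.82 to 8.16 in the ductus and 8.14 to 8.80 in the aorta (-0.49 ± 0.15, limma adjusted p = 0.132). It passed without aorta replicate 3 (-0.62, limma adjusted p = 0.04, over a range of 0.04 to 0.458 in 20 alternatives). That array had the highest aorta mean of brown adipocyte markers and the lowest of mesothelial (7.96) and endothelial (7.64) markers. The order of the aorta arrays by Wnt9a, replicates 1, 4, 2 and 3, was that of the mesothelial and endothelial means, but the ductus orders differed. The cell source of Wnt9a was not tested. The second Wnt9a probe set, at a mean of 2.60, was not shown to be above background and gave 0.07. Wnt9b was under the array median in every sample and did not overlap (2.74 to 3.19 against 3.35 to 3.69; -0.40 ± 0.14, adjusted p = 0.163). The remaining ligands had an adjusted p of 0.429 or more, among them Wnt2, whose value of 4.17 on aorta replicate 1 stood above 2.82 to 3.32 on the other arrays, and Wnt11, at 3.65 ± 0.22 and 3.62 ± 0.41.

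No Frizzled, Ror or Lrp gene passed. Those with the lowest adjusted p were higher in the ductus. Among 12 Frizzled and Ror genes limma called 0, with 4 at an unadjusted p under 0.05 higher in the ductus and 1 higher in the aorta. Ror2, a tyrosine kinase-like receptor for Wnt5a, was at 5.75, 5.25, 6.08 and 5.77 in the ductus and 4.46, 5.22, 4.55 and 5.15 in the aorta. The lowest ductus value lay just above the highest aorta value, and the difference was 0.87 ± 0.23 (limma adjusted p = 0.0737). The other Ror2 probe set gave 1.45 ± 0.28 and was called (adjusted p = 0.0226), and the mean of both was called at 1.16 (adjusted p = 0.000385, over a range of 0.000385 to 0.206 in 20 alternatives, 6 of which called it). Ror1, its relative, was at 9.67 to 10.04 in the ductus and 8.62 to 9.42 in the aorta (0.67 ± 0.18, adjusted p = 0.0868), with the low value of 8.62 on aorta replicate 4.

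The Frizzled genes split. Fzd7 was at 10.04 to 10.30 in the ductus and 9.57 to 9.93 in the aorta (0.42 ± 0.12, limma adjusted p = 0.0911), and Fzd5 at 8.34 to 8.86 and 7.54 to 8.26 (0.53 ± 0.18, adjusted p = 0.166). Neither overlapped between the tissues. The second probe sets, at means of 2.84 for Fzd7 and 2.43 for Fzd5, were not shown to be above background, and gave -0.06 and 0.02. Fzd8 had the opposite sign (-0.50 ± 0.20, adjusted p = 0.266), as did its other probe set (-0.36). Fzd1 and Fzd2 were above the array median on every array, and the 95% intervals of their differences ran from -0.39 to 0.28 and from -0.31 to 0.31, so a 2-fold difference lies outside both. Fzd4, which with Norrin shapes retinal vessels, was at -0.21 ± 0.11 (adjusted p = 0.381), and Fzd6 at 0.28 ± 0.13 (0.316). The co-receptor Lrp6 was at 10.57 to 10.72 in the ductus and 10.25 to 10.47 in the aorta, without overlap (0.28 ± 0.10, adjusted p = 0.193), and Lrp5 at 4.61 ± 0.28 and 4.45 ± 0.27. Fzd10os was under the array median throughout (-0.12 ± 0.17), and so were Fzd9 and Fzd10. Fzd3, near the array medians, was at -0.06 ± 0.18 (adjusted p = 0.918).

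The secreted inhibitors went both ways: Sfrp1 and Sfrp2 lay on the ductus side, and Dkk2 and Dkk3 lay on the aorta's side. Sfrp2 was at 12.19, 12.31, 12.25 and 12.31 in the ductus and 11.69, 11.65, 11.78 and 11.84 in the aorta. Its small difference of 0.52 ± 0.09 (1.44-fold, 95% interval 0.31 to 0.73, limma adjusted p = 0.0151) stood against SDs of 0.06 and 0.08. Sfrp2 has 1 probe set here, and it did not pass without ductus replicate 2 (adjusted p = 0.0513) or 4 (0.0529) or aorta replicate 2 (0.0529), over a range of 0.00029 to 0.0925 in 20 alternatives.

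Sfrp1, which like Sfrp2 binds Wnts outside the cell, was at 11.10 to 11.49 in the ductus and 10.62 to 10.97 in the aorta, without overlap, and did not pass (0.42 ± 0.13, limma adjusted p = 0.113). All of its 5 probe sets were higher in the ductus, by 0.22 to 1.20, and 2 of them were called (1.20 ± 0.13, adjusted p = 0.00113, and 0.72 ± 0.15, adjusted p = 0.0337). With the mean over its probe sets Sfrp1 was called at 0.59 (adjusted p = 0.0113, over a range of 0.00115 to 0.256 in 20 alternatives). Sfrp5 was under the array median throughout (-0.28 ± 0.12, adjusted p = 0.301), and Sfrp4 was at 4.95 ± 0.35 and 4.90 ± 0.17.

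Dkk2, a blocker of Lrp6, was at 6.17, 5.42, 5.74 and 5.63 in the ductus and 5.92, 7.01, 6.65 and 6.73 in the aorta. Aorta replicate 1 lay within the ductus range, the other 3 above it, and the difference of -0.84 ± 0.24 did not pass (limma adjusted p = 0.0993). Without aorta replicate 1 it was -1.06 and passed (adjusted p = 0.0211, over a range of 0.0211 to 0.272 in 20 alternatives). Dkk3, a divergent family member, was at 10.33 to 10.66 in the ductus and 10.80 to 11.12 in the aorta, without overlap (-0.38 ± 0.12, adjusted p = 0.136), and its second probe set gave -0.47. Frzb was at 8.26 ± 0.15 and 8.57 ± 0.44 (adjusted p = 0.515). Dkk1, Dkk4, Notum and Wif1 were under the array median on every array, with adjusted p of 0.456 or more.

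Inside the cell and among the ligases, limma called 0 of 7 genes, and 0 had an unadjusted p under 0.05. Tcf7l2, a nuclear partner of beta-catenin, was at 10.16 to 10.61 in the ductus and 10.01 to 10.24 in the aorta (0.26 ± 0.13, adjusted p = 0.36), and Tcf7l1, mostly a repressor, was at -0.19 ± 0.12 (adjusted p = 0.518). Axin2, the classical feedback target of beta-catenin, was at 6.00, 4.34, 4.69 and 5.12 in the ductus and 4.27, 4.95, 4.99 and 5.08 in the aorta. The tissues overlapped and the 95% interval of the difference ran from -0.53 to 0.96. Ductus replicate 1 was highest both for Axin2 and for Lgr5. Lef1, a Wnt effector that T cells also make, was at 9.19, 7.98, 8.09 and 7.12 in the ductus and 8.42, 7.20, 7.81 and 8.56 in the aorta (0.10 ± 0.43, adjusted p = 0.942). The order of the ductus arrays by Lef1, replicates 1, 3, 2 and 4, was that of the thymus and T cell marker means (7.02, 5.83, 5.09 and 3.86). The mesothelial and cardiac marker means had this ductus order too. In the aorta, replicate 4 was highest for Lef1 and for the thymus and T cell markers, but replicates 2 and 3 were in the opposite order. The cell source of Lef1 was not tested. Axin1 was at 5.95 ± 0.17 and 6.11 ± 0.28, and the ligases Znrf3 (0.08 ± 0.12) and Rnf43 (0.08 ± 0.14) had adjusted p of 0.814 and 0.851.

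**Figure D3:**
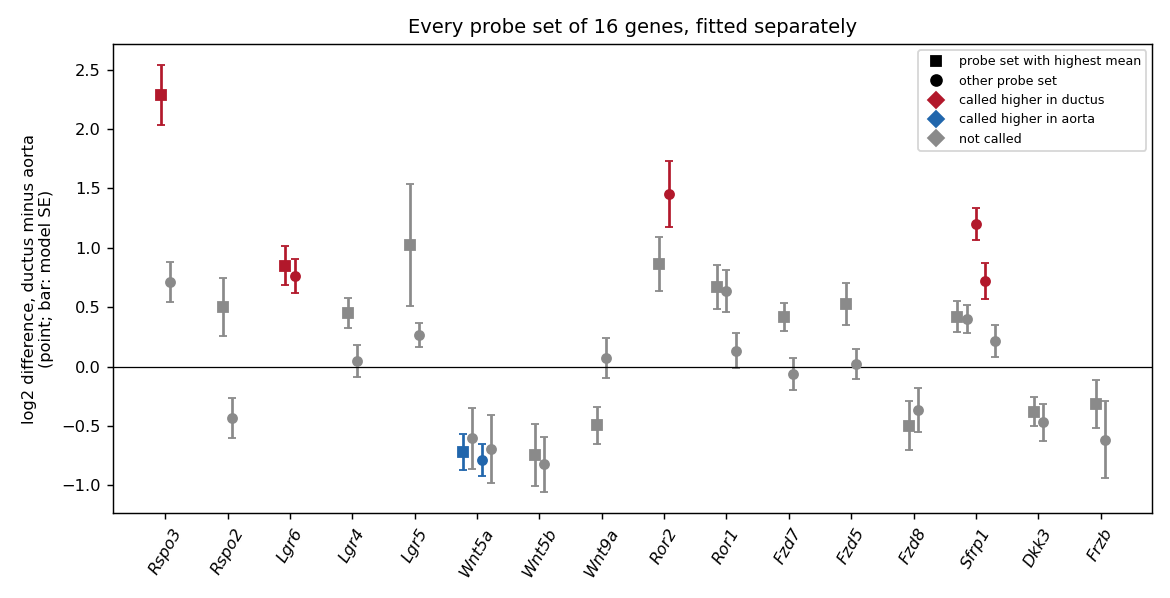
Log2 difference between ductus and aorta (y axis, with the model's standard error) for every probe set of 16 genes, fitted separately over all probe sets, with squares for the probe set of highest mean and circles for the others. The probe sets of Lgr6, Wnt5a, Wnt5b, Ror1, Ror2, Sfrp1, Dkk3, Fzd8, Rspo3, Lgr4, Lgr5, Fzd5 and Frzb keep to the same side of 0, and those of Rspo2, Wnt9a and Fzd7 do not, where the probe set of lower mean is under the array median on all 8 arrays.

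Promoter sequences were read for 38 of the 59 members in 46 windows, and none was read for the other members, among them the called Rspo3 and Wnt5a. The member windows leave out a chromosome that the windows of all genes include. Sequences are shown for the 3 called genes among the 38, to set the start region of genes that differ between the vessels beside their values. Each is the 250 bases before the annotated start, 5' to 3' on the gene's strand, from RefSeq on GRCm38.p6. Capitals mark matches to the AP-2 motif GCCNNNGGC or the TCF/LEF core CTTTGA, each searched on both strands.
Lgr6 (higher in the ductus), chr1:135105277-135105526, minus strand: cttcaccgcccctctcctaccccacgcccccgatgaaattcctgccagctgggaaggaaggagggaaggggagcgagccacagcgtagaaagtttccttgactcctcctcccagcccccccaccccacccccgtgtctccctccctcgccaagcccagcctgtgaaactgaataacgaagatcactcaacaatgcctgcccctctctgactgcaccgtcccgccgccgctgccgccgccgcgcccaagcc
Sfrp2 (higher in the ductus), chr3:83766071-83766320, plus strand: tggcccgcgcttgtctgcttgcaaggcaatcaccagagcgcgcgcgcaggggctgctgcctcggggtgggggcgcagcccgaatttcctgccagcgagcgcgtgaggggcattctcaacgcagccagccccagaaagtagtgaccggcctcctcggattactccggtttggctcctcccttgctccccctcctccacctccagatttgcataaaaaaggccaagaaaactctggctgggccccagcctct
Wnt16 (higher in the aorta), chr6:22287977-22288226, plus strand: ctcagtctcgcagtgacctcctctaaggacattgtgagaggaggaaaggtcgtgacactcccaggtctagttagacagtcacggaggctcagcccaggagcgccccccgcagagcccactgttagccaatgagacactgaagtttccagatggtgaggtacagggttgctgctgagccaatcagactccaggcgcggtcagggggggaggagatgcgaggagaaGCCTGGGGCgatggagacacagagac
The Wnt16 window held 1 AP-2 match, which began 26 bases before the start, and the Lgr6 and Sfrp2 windows held none of either motif. The TCF/LEF core was in 7 of the 46 member windows (15.2%) and in 13.8% of all 32851 windows of this length. The AP-2 motif was in 15 of 46 (32.6%) and in 13.7% of all. The member windows were richer in G and C (median 66.4%, against 52.4% of all windows), and the fixed bases of the AP-2 motif are G and C. Windows of like base content were not compared, so the part of base content in the AP-2 share was not tested. A match is a description of the letters and no evidence of binding.

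The rest of the pathway was read from 4 lists with 115 measured genes outside the members, Apcdd1, Bambi, Btrc and Nkd1 each being on 2 of the lists. Of the 115, limma called 11 higher in the ductus and 2 higher in the aorta, against 1.80% and 2.06% of all genes. The lists were chosen with earlier results of these data known, so these counts are a description and not a test. Their median difference was 0.04, against -0.03 over all genes. Of 20 genes for secretion and extracellular control, limma called 2 higher and 1 lower in the ductus, against the same shares of all genes. Apcdd1, a membrane inhibitor of Wnt signalling and also a target of it, was at 8.33 to 8.53 in the ductus and 5.04 to 5.93 in the aorta (2.90 ± 0.19, 7.47-fold, adjusted p = 5.9e-05). Cthrc1, a secreted protein that favours Wnt binding to Fzd and Ror2, was at 10.00 to 10.24 and 8.66 to 9.23 (1.28 ± 0.14, adjusted p = 0.000889). Sost, the Lrp blocker sclerostin, was at 5.81 to 6.67 in the ductus and 7.76 to 8.47 in the aorta (-1.89 ± 0.22, 3.70-fold higher in the aorta, adjusted p = 0.00155). None of these 3 overlapped between the tissues, and each was called in all 20 alternatives. With the mean over probe sets, Apcdd1 was at 1.79 and Sost at -1.07, so the size of both rests on the probe set.

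In the list of co-receptors and planar polarity genes, limma called 4 of 27 higher in the ductus and 1 lower, against 1.80% and 2.06% of all genes. Celsr1, a cadherin that orients cells in a sheet, was 2.13-fold higher in the aorta (-1.09 ± 0.14, limma adjusted p = 0.00219). Higher in the ductus were Camk2d, a calcium-dependent kinase (1.08 ± 0.19, adjusted p = 0.013), Daam2, a formin downstream of Dishevelled (0.88 ± 0.14, adjusted p = 0.00725), Celsr2 (0.55 ± 0.12, adjusted p = 0.0406) and Dact3, a Dishevelled antagonist (0.66 ± 0.15, adjusted p = 0.0426). With other probe sets the sign turned for Daam2 (-0.038) and Dact3 (-0.41), so their direction rests on the probe set, and Celsr2 was called in 6 of 20 alternatives. Camk2d was at 0.49 with the mean over probe sets (adjusted p = 0.021 with limma) and did not pass in 1 of 20 alternatives, over an adjusted p of 0.00443 to 0.0778.

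None of 43 cytoplasmic and nuclear genes was called by limma in either direction, against 3.86% of all genes. Of the 43, 5 had an unadjusted p under 0.05, against 16.1% of all genes. Beta-catenin itself, Ctnnb1, had means of 12.14 and 12.08 (ductus, aorta; 0.06 ± 0.09, adjusted p = 0.806), Gsk3b differed by 0.17 ± 0.12 and Dvl1 by 0.10 ± 0.12. Of 29 genes listed as Wnt targets, limma called 6 higher and 0 lower in the ductus, against 1.80% and 2.06% of all genes. The list was chosen with earlier results of these data known, so its counts are a description and not a test. At an unadjusted p under 0.05, which 16.1% of all genes had in either direction, 8 were higher and 6 lower in the ductus. The latter were Bambi, Ccnd2, Fgf18, Fgf9, Msx1 and Twist1. The list's median difference was 0.05, with 18 of 29 above 0, while its mean level was 6.41 to 6.48 in the ductus and 6.15 to 6.23 in the aorta. The 6 were Apcdd1, the activin binder Fst (1.29 ± 0.10, adjusted p = 0.000105), the cartilage and neural crest factor Sox9 (1.94 ± 0.16, adjusted p = 0.00016), Id2 (0.73 ± 0.09, adjusted p = 0.00191), fibronectin Fn1 (0.52 ± 0.10, adjusted p = 0.0193) and Tnfrsf19 (0.81 ± 0.16, adjusted p = 0.0255). Each of them answers to other signals as well. Tnfrsf19 was called in 11 of 19 alternatives and was at 0.20 with the mean over probe sets (limma adjusted p = 0.468), and it did not pass without ductus replicate 1, 2 or 3 or aorta replicate 1, 2 or 4. Fn1 was called in 17 of 20, with differences of 0.47 to 1.28, and did not pass without ductus replicate 1 or 3. Sox9 was at 0.98 with the mean over probe sets, and Id2 was called in 19 of 20. The feedback genes Axin2, Znrf3 and Nkd1 (0.29 ± 0.26, adjusted p = 0.657 with limma) did not pass. Rnf43, Notum and Sp5 were above the first quartile on 0, 1 and 1 of the 8 arrays, and their signal was not shown to be above background.

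**Figure D4:**
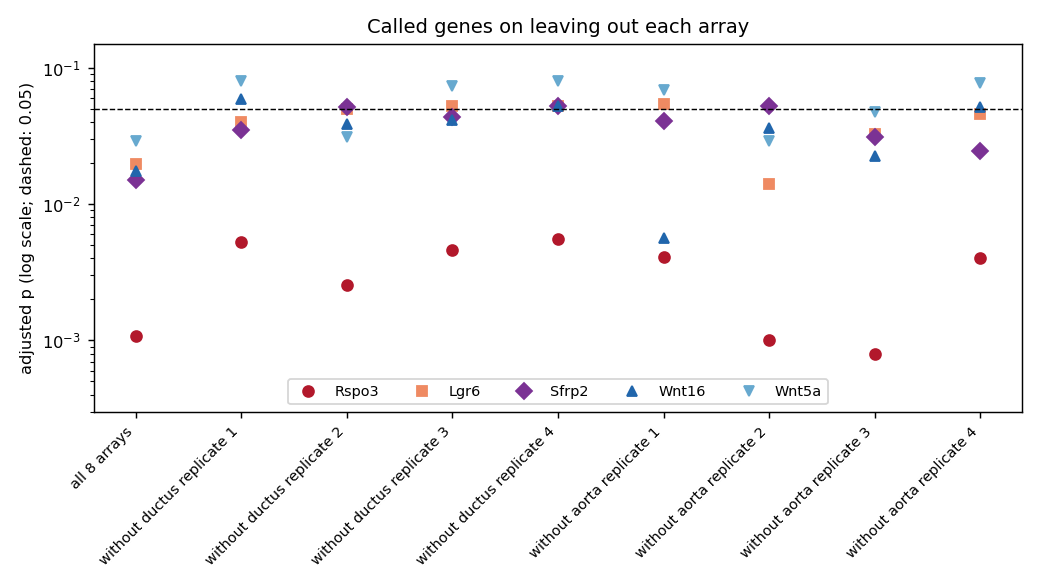
Adjusted p of the 5 called genes (y axis, log scale, limma) with all 8 arrays and on leaving out each array in turn, with the dashed line at 0.05. Rspo3 stays below the line on every omission, whereas Lgr6, Sfrp2, Wnt16 and Wnt5a each cross it on 3 to 5 of the 8 omissions.

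Among the 5 called members, Rspo3 kept its call on leaving out each of the 8 arrays. Without ductus replicate 4 it was the 1 member called higher in the ductus. The count called higher in the aorta was 0 without ductus replicate 1, ductus replicate 4 or aorta replicate 4, with 7, 6 and 7 genes at an unadjusted p under 0.05, and it was 1 without ductus replicate 3. Over all genes the count of calls moved from 702 to between 443 and 705 on such omissions.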

How the data were processed

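Total RNA of 4 ductus and 4 aorta pools (6 ug, biotin-labelled) was measured on Affymetrix mouse arrays. The authors deposited log2 values per probe set, processed, per the submitters' processing notes, with Partek 6.6 and RMA. RMA corrects background, applies quantile normalization and summarises probes. The settings were not given in the sources used. No file gives counts, and the number of arrays limits the precision.

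Of 45101 probe sets, 64 controls, 9160 not listed in the annotation used and 932 with several symbols were left out. The other 34945 were named by gene ID through the reference gene table (34741 matched, 204 kept the platform's symbol), and gene coordinates were not used since the arrays name no build. Each of 18193 genes was represented by its brightest probe set on average over all arrays, with no filter on low values. The tissues were compared with limma 3.58.1 in R 4.3.3 (lmFit, eBayes, no covariate, two-sided, Benjamini-Hochberg over all genes, threshold 0.05), which was tested on simulated data. Errors of differences are model standard errors and those of levels are SDs.

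Named with values were called members, members with an unadjusted p under 0.05, the 2 largest differences of each role and up to 6 called genes of each pathway list. Other members appear for completeness. The genes of the marker lists and the uncalled genes of the pathway lists were picked as anchors of their list. The members and lists were chosen with earlier results of these data known. Alternatives covered scaling, low values, the probe set, the prior, array weights, a replicate block, an unmoderated test and each array left out.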

Additional observations from a re-analysis of the deposited data

Results flagged for a closer look

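Among the 40 genes named by rule, 80 groups of 4 arrays were checked for an array far from the other 3, and 7 had one (a gap to the nearest array of over 0.829 of the group's range). Chance alone gives about 1 in 20 such groups. Wnt9b was highest on aorta replicate 4 at 3.69, with the next at 3.37. Ror1 was lowest on the same array at 8.62, the next being 9.31, as was Dact3 at 5.26 (next 5.37) and Id2 at 9.87 (next 9.96). Fzd5 was highest on ductus replicate 4 at 8.86, with the next at 8.43. Dkk3 was lowest on ductus replicate 1 at 10.33 (10.62 next), and Axin2 was lowest on aorta replicate 1 at 4.27 (4.95 next). Among the aorta arrays, the means of thymus and T cell, skeletal muscle, lung epithelium, neural and Schwann, and blood markers were all highest on replicate 4. Their part in these values was not tested.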

How the results depend on the processing

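Across 20 alternatives, the 27 members named by rule kept their direction in 519 of 526 fits, and no called member reversed. The unmoderated test, the trended, robust prior, the low-value filters and the replicate block leave the difference itself unchanged, so its sign could not turn there. Of the 27, 19 were named by an unadjusted p under 0.05 (limma) in these same arrays, so the tally is no independent support. The count of members higher in the ductus, 3, became 5 with the most variable probe set (by interquartile range) and with the mean over probe sets, and 6 with a trended, robust prior. The count higher in the aorta, 2, became 1 after centring, quantile normalization, cyclic loess, either low-value filter (which left out Wnt16 itself) or the replicate block, and 0 with the unmoderated test (8 at an unadjusted p under 0.05). Leaving out 1 array gave 1 to 4 and 0 to 3 members, and 7 to 10 and 2 to 4 other pathway genes. Those counts, 11 and 2, became 7 higher in the ductus with the mean over probe sets or the unmoderated test, and 4 higher in the aorta with the most variable probe set. Reversed were Dact3, at -0.41 with that probe set and -0.045 with the mean over probe sets, and Daam2, at -0.038 with a probe set without suffix. The cause was not tested. The tissues share replicate numbers, but deviations of same-numbered arrays correlated at -0.23 to -0.07. With the replicate block, 2 members were called higher in the ductus, Sfrp2 (adjusted p = 0.0925) and Wnt5a (0.108) did not pass, and over all genes 403 were called in place of 702. Fits of every probe set alone are given as signs and calls of probe sets. Signal near the first quartile limits what can be seen in 26 members that were under the array median on all arrays.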
